A study of Mus musculus with 6 samples.

Results

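P-selectin glycoprotein ligand 1 (PSGL-1, encoded by Selplg) and 8 enzyme genes that build or modify its selectin-binding groups were examined in Ly6D-negative common lymphoid progenitors, early bone marrow cells with T, B and natural killer cell potential. The 9 genes were taken by name, out of 22180 genes with a value: Selplg, Fut4, Fut7, Gcnt1, St3gal4, St3gal6, B4galt1, Tpst1 and Tpst2. Control mice were OcnCre-;iDTR+/- (3 samples) and mutant mice were OcnCre+;iDTR+/- (3 samples), both at 6 to 8 weeks of age. In the mutants, Cre under the osteocalcin promoter makes osteocalcin-expressing bone cells sensitive to diphtheria toxin. Both groups received toxin daily for 4 weeks, and cells were sorted on the day after the last dose. The comparison asks whether loss of osteocalcin-expressing cells alters transcripts of the progenitors. The labels do not say whether a sample was 1 mouse or a pool, so the p-values cover no more than the spread among these 6 samples, and so few arrays limit the precision.

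PSGL-1 is a mucin-like protein on leukocytes that binds selectins only after it has been decorated in the Golgi. Tyrosines near its outer end are sulfated, and its O-linked sugar chains are branched, lengthened with galactose, capped with sialic acid and finally fucosylated to give sialyl Lewis X. Circulating lymphoid progenitors use this ligand to attach to P-selectin on thymic endothelium, which makes its decoration of interest for progenitors that must settle in the thymus.

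No difference between mutant and control progenitors passed the test in any of these genes. Of the 8 that were bright enough to be tested, 0 passed an adjusted p of 0.05 in limma, and 0 had an unadjusted p under 0.05. In the same fit 0% of 13308 tested genes passed and 8.03% had an unadjusted p under 0.05. An unmoderated test also passed 0 of the 8, with 1 (Tpst2) at an unadjusted p under 0.05, against 6.61% of all tested genes in that test. Mutant means were higher for 4 genes and lower for 5, from −0.23 (B4galt1) to 0.16 (Tpst2) on the log2 scale. The median over the 9 was −0.01, against 0.03 over all genes and −0.04 over the tested genes. The 95% intervals of the 8 tested differences reached between 0.25 and 0.46 to either side, so smaller differences could not be resolved with these arrays.

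**Figure D1:**
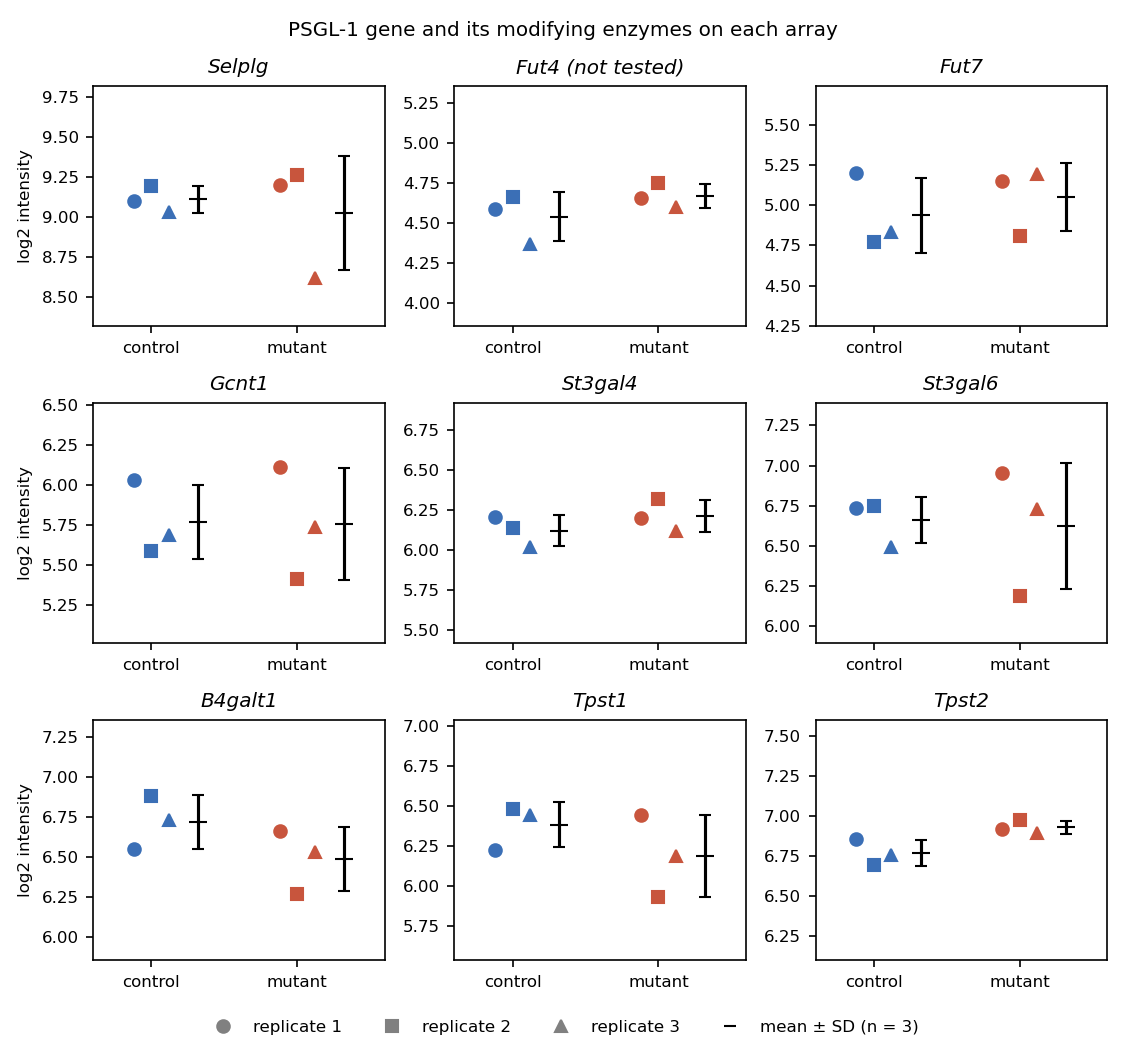
Log2 probe set intensity (y axis) of the 9 genes on the 3 control and 3 mutant arrays (x axis), with symbols for replicates and bars for the mean ± SD (n = 3 per group). Only in Tpst2 do all mutant points lie above all control points, and mutant replicate 3 lies apart from the other arrays in Selplg.

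Several properties of the arrays touch these genes. The array of mutant replicate 2 stood apart: its correlations with the rest were 0.935 to 0.954, while those among the rest were 0.973 to 0.989 (across probe sets, which are not independent). It held the lowest or the highest value of 8 of the 9 genes, and of 60.7% of the tested genes. It was lowest for Gcnt1, St3gal6, B4galt1 and Tpst1 and highest for Selplg, Fut4, St3gal4 and Tpst2. On mutant replicates 2 and 3 values were compressed, with lower bright genes and higher dim ones. Each of the 9 genes was therefore set beside the median difference of its brightness group, 1 of 10 equal groups of all genes ranked by mean intensity, with group 10 the brightest. These medians ran from 0.10 down to −0.21 in the brightest group. Control replicate 1 and mutant replicate 3 had the Y-linked gene Eif2s3y at 4.88 and 4.77, against 7.31 to 7.85 on the other 4 arrays. As to identity, the leukocyte gene Ptprc stood at 9.46 ± 0.19 in controls and 8.95 ± 0.23 in mutants, and Il7r, the gene of the CD127 marker used in the sort, at 10.11 ± 0.27 and 9.76 ± 0.04 (SD, n = 3 each). In both genes every mutant value lay below every control value, and neither passed in limma. Both lay in brightness group 10, with a median difference of −0.21. Groups overlapped in Kit, Flt3 and Thy1, listed with Il7r, whose mutant means differed from controls by −0.02, −0.18 and −0.21. They also overlapped in Cd48 (−0.32), Coro1a (−0.37) and Laptm5 (−0.31), listed with Ptprc. Of all tested genes, 15.4% had groups that did not overlap in 1 direction or the other. Ly6d, the gene of the marker that the sort excluded, was at 7.86 ± 0.59 and 7.29 ± 0.28, above the brightness cut for testing (4.84, which leaves out the lowest 40% of genes). Early B lineage genes were bright, with Igll1 at 11.04 in controls and 10.62 in mutants, Cd79b at 10.57 and 10.21 and Cd79a at 10.55 and 10.35. Ebf1 was at 9.87 and 9.92, Blnk at 9.85 and 9.61 and Pax5 at 8.55 and 8.27, while Vpreb1 was below the cut. What share of the cells carried these transcripts was not tested. The tissue label names marrow stromal cells. Of 9 stromal and osteoblast genes with a value, Alpl (8.01 in controls and 8.16 in mutants), Cxcl12, Col1a1, Col1a2, Bglap and Pdgfrb were above that cut and Sp7, Lepr and Kitl below it.

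The scaffold itself, Selplg (probe set 17451437), was at 9.10, 9.19 and 9.03 in the control arrays, in replicate order, and at 9.20, 9.26 and 8.62 in the mutant arrays. Mutant replicate 2 thus exceeded every control, and mutant replicate 3 lay below all other arrays. Mutant replicate 1 was level with the highest control, replicate 2 (9.197 against 9.194). With repeated quantile normalization it lay below that control (9.097 against 9.126). The group means were 9.11 ± 0.08 and 9.02 ± 0.35 (SD, n = 3 each), and the difference was −0.08 ± 0.18 (SE; 95% interval −0.50 to 0.34; adjusted p = 0.863, limma). As a fold this is 0.944, with an interval of 0.706 to 1.26. A second Selplg probe set (17440768) read 7.49, 7.82 and 7.76 in the controls and 7.69, 7.79 and 7.05 in the mutants. It again had its lowest value on mutant replicate 3, although on it mutant replicates 1 and 2 lay within the control range. Its difference was −0.18 ± 0.21 (adjusted p = 0.741 in limma with every probe set fitted alone).

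Which way Selplg leaned rested on mutant replicate 3 and on the scaling of the arrays. The difference was 0.12 when mutant replicate 3 was left out and −0.20 on leaving out mutant replicate 2. It also turned to 0.07 with repeated quantile normalization and to 0.10 with cyclic loess. Between the arrays with low Eif2s3y (control replicate 1 and mutant replicate 3) it was −0.48, and among the 4 others it was 0.12. With array weights it became −0.41 and passed (adjusted p = 0.0338 in limma; 0.0338 to 0.970 over all alternatives), in a fit that gave mutant replicate 3 a weight of 5.20 and mutant replicate 2 one of 0.214, and in which 2960 genes passed. Its brightness group had a median difference of −0.21, lower than that of Selplg.

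The tested genes whose values followed Selplg most closely over the 6 arrays were Ap2m1 (Pearson r = 0.996), Ppp1r16a (0.995), Lpp (0.991), Cenpx (0.988) and H2bc18 (0.987). These are descriptions over 6 arrays, picked as the highest values of r. Ap2m1, a subunit gene of the clathrin adaptor for endocytosis, was at 7.86, 7.94 and 7.78 in controls and at 7.89, 7.99 and 7.39 in mutants. The histone gene H2bc18 was at 7.26, 7.29 and 7.10 and at 7.25, 7.34 and 6.53. Like Selplg, all of these genes had their lowest value on mutant replicate 3, which follows from picking them by their match to Selplg. On that array 19.1% of all tested genes had their lowest value. The differences of −0.17 to −0.08 in the picked genes did not pass.

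Tyrosine sulfation of PSGL-1 is carried out by the tyrosylprotein sulfotransferases of Tpst1 and Tpst2, whose means leaned in opposite directions. Tpst2 (probe set 17440667) was at 6.86, 6.69 and 6.76 in controls and at 6.92, 6.98 and 6.90 in mutants. All mutant arrays were above all controls, the nearest pair being control replicate 1 and mutant replicate 3. The means were 6.77 ± 0.08 and 6.93 ± 0.04 (SD, n = 3 each), a difference of 0.16 ± 0.11 (SE; 95% interval −0.09 to 0.41; adjusted p = 0.616, limma). Of the 8 tested genes 1, Tpst2, had groups that did not overlap. Over all tested genes 15.4% had groups that did not overlap in either direction and 5.4% had mutants above controls.

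Among the 9 genes Tpst2 also had the most positive difference relative to its brightness group, whose median was −0.08, so that Tpst2 stood 0.24 above it. The difference was 0.27 with repeated quantile normalization, 0.25 with cyclic loess and 0.10 with arrays centred on their medians. In the last of these the groups overlapped, since mutant replicates 2 and 3 fell to 6.89 and 6.86 and control replicate 1 was at 6.89. On leaving out 1 array it stayed between 0.12 and 0.20. It was 0.04 between the arrays with low Eif2s3y and 0.22 among the others. None of these alternatives brought it past the threshold.

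Tpst1 (probe set 17442985) was at 6.22, 6.48 and 6.45 in controls and at 6.44, 5.93 and 6.19 in mutants. The groups overlapped, because mutant replicate 1 lay beside the upper controls and control replicate 1 beside mutant replicate 3. The means of 6.38 ± 0.14 and 6.19 ± 0.26 (SD, n = 3 each) differed by −0.20 ± 0.16 (SE; 95% interval −0.56 to 0.17; adjusted p = 0.652, limma). It came to −0.07 when mutant replicate 2 was left out and to −0.32 on leaving out mutant replicate 1. Whether the Tpst1 and Tpst2 differences are unlike was not tested.

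Branching of the O-glycan by the core 2 enzyme of Gcnt1 creates the arm on which sialyl Lewis X is built. Gcnt1 (probe set 17363320) was at 6.03, 5.59 and 5.69 in controls and at 6.11, 5.41 and 5.74 in mutants. The first replicate of each group was high and mutant replicate 2 was lowest, so that the arrays spanned 0.699 while the means of 5.77 ± 0.23 and 5.75 ± 0.35 (SD, n = 3 each) differed by −0.01 ± 0.20 (SE; 95% interval −0.48 to 0.45; adjusted p = 0.981, limma). The sign was not stable, with 0.16 without mutant replicate 2, 0.12 without control replicate 1 and −0.19 without mutant replicate 1.

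B4galt1 encodes the galactosyltransferase that extends this arm. It (probe set 17424077) was at 6.55, 6.88 and 6.73 in controls and at 6.67, 6.27 and 6.53 in mutants, with the 2 highest values in controls and the 2 lowest in mutants. Control replicate 1 and mutant replicate 1 made the groups overlap. The difference was the most negative of the 9, with means of 6.72 ± 0.17 and 6.49 ± 0.20 (SD, n = 3 each) that differed by −0.23 ± 0.15 (SE; 95% interval −0.58 to 0.11; adjusted p = 0.607, limma). It shrank to −0.12 when mutant replicate 2 was left out, was −0.32 on leaving out mutant replicate 1, and stood at −0.16 both with repeated quantile normalization and with cyclic loess. Relative to its brightness group B4galt1 stood 0.15 lower and Tpst1 0.11 lower. For both genes the difference was near 0 between the arrays with low Eif2s3y (−0.02 and −0.03) and larger among the other 4 (−0.34 and −0.28).

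Capping with sialic acid in the linkage needed for sialyl Lewis X is done by the enzymes of St3gal4 and St3gal6. St3gal4 (probe set 17525329) was at 6.20, 6.14 and 6.02 in controls and at 6.20, 6.32 and 6.12 in mutants. Its values spanned 0.301 over the 6 arrays, with groups that overlapped, means of 6.12 ± 0.09 and 6.21 ± 0.10 (SD, n = 3 each) and a difference of 0.09 ± 0.12 (SE; 95% interval −0.18 to 0.36; adjusted p = 0.766, limma). St3gal6 (probe set 17331173) was at 6.73, 6.75 and 6.49 in controls and at 6.95, 6.18 and 6.73 in mutants. Here the mutants held both the highest and the lowest value, 0.77 apart. The means of 6.66 ± 0.14 and 6.62 ± 0.40 differed by −0.03 ± 0.20 (SE; 95% interval −0.50 to 0.43; adjusted p = 0.949, limma), and the sign turned in several settings, to 0.18 without mutant replicate 2, 0.024 with repeated quantile normalization and 0.039 with cyclic loess.

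Fucosylation completes the ligand, mainly through fucosyltransferase VII of Fut7 with a contribution of fucosyltransferase IV of Fut4. Fut7 (probe set 17367999) was at 5.20, 4.77 and 4.84 in controls and at 5.15, 4.81 and 5.20 in mutants. Its arrays fell into a high set (control replicate 1, mutant replicates 1 and 3) and a low set (control replicates 2 and 3, mutant replicate 2), which crossed the groups. The means of 4.94 ± 0.23 and 5.05 ± 0.21 (SD, n = 3 each) differed by 0.11 ± 0.17 (SE; 95% interval −0.27 to 0.49; adjusted p = 0.794, limma). Its low values lay near the brightness cut, and no detection call shows how far they stood from background. The difference was 0.25 without control replicate 1 and 0.03 without control replicate 2.

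Fut4 (probe set 17524077) was below that cut and was not tested. It was at 4.59, 4.66 and 4.37 in controls and at 4.66, 4.75 and 4.60 in mutants, with overlapping groups and control replicate 3 lowest. The means were 4.54 ± 0.15 and 4.67 ± 0.07 (SD, n = 3 each), and the difference was 0.13 ± 0.12 (SE, from limma on all genes), close to the median of 0.09 in its brightness group.

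**Figure D2:**
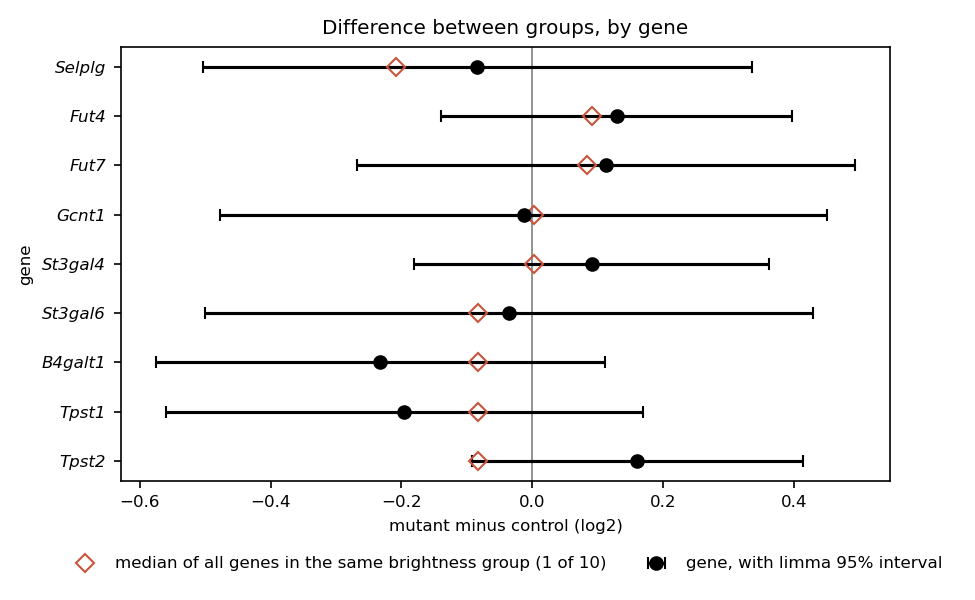
Difference of mutant minus control means (log2, x axis) for each of the 9 genes (y axis), with limma 95% intervals (for Fut4 from the fit on all genes), and open diamonds for the median difference of all genes in the same brightness group, 1 of 10. All 9 intervals span 0, and 6 genes lie above and 3 below the median of their brightness group.

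Myeloid cells carry much PSGL-1 and the same fucosyltransferases, so their transcripts were followed on the same arrays. Of 10 myeloid marker genes, 6 had higher and 4 lower mutant means (median difference 0.07), and 0 passed in limma. Their summed linear intensity was 14474, 8798 and 9850 on the control arrays, in replicate order, and 15844, 8914 and 12077 on the mutant arrays. The 3 arrays with the highest sums were the 3 with the highest Fut7 values and the 3 with the highest Gcnt1 values, whereas Selplg was lowest on 1 of them, mutant replicate 3. The match was not particular to myeloid genes, since the sums of 6 erythroid and megakaryocyte genes were highest on the same 3 arrays, at 779.9, 351.7 and 478.3 on the control arrays and 850.0, 431.6 and 650.6 on the mutant arrays. Mpo, the myeloperoxidase gene, was at 11.36, 9.48 and 10.44 in controls and at 11.45, 10.51 and 10.68 in mutants. Other genes of the myeloid list ran differently. Lyz2 was at 10.14, 10.57 and 10.40 in controls and at 10.72, 9.79 and 9.88 in mutants. Csf1r was at 6.60, 6.43 and 6.55 in controls and at 6.39, 6.10 and 5.99 in mutants. None of the 10 genes was below the brightness cut. The part of such transcripts in the Fut7 and Gcnt1 values was not tested. In bulk samples fewer cells of a type and less RNA per cell cannot be told apart.

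The remaining genes of the selectin ligand pathway were grouped by role, and 61 of 76 with a value were bright enough to be tested. Of these, 20 were higher and 41 lower in the mutant mean, with a median of −0.07, against 5653 higher and 7655 lower among all tested genes, whose median was −0.04. In limma 0 passed and 0 had an unadjusted p under 0.05. Groups did not overlap for 3 of the 61, against 15.4% of all tested genes. The differences of pathway genes given below are not adjusted for brightness. Over all genes the median difference was −0.08, −0.16 and −0.21 in brightness groups 8, 9 and 10, and 0.00 in group 7. In groups 3 to 6 it was 0.10, 0.09, 0.08 and 0.05.

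Upstream of core 2, 7 of 11 tested genes that start mucin-type O-glycans and form core 1 were lower (median −0.12). C1galt1, the core 1 synthase gene, was at 8.55, 8.97 and 8.90 in controls and at 8.57, 8.36 and 8.55 in mutants, a difference of −0.31 ± 0.15 (SE; adjusted p = 0.594, limma), and Galnt11, an initiating transferase gene, differed by −0.20 ± 0.14. The medians of their brightness groups were −0.21 and 0.08. Among other genes of branching and chain extension 5 of 8 were lower (median −0.14), including the lactosamine extension gene B3gnt2 (−0.29 ± 0.18) and B3gnt8 (−0.25 ± 0.16). Supply of sugar and sulfate donors had 13 of 16 lower (median −0.07). Ugp2, which makes UDP-glucose, was at 7.18, 7.31 and 7.38 in controls and at 7.16, 6.55 and 7.01 in mutants, so its groups did not overlap, and it differed by −0.38 ± 0.17 (adjusted p = 0.594, limma). The median of its brightness group was −0.16. The fucose kinase gene Fcsk differed by −0.25 ± 0.15.

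In the list of other sialyltransferases 5 of 8 tested genes had a higher mutant mean (median 0.11). St6galnac4, which adds sialic acid to the first sugar of the O-glycan, had groups that did not overlap, at 5.85, 5.75 and 5.87 in controls and 5.98, 6.02 and 5.92 in mutants (0.15 ± 0.11, SE). By contrast St3gal1, whose enzyme caps core 1 and can compete with core 2 branching, differed by −0.31 ± 0.16, and St6gal1, which sialylates N-glycans in another linkage, by −0.23 ± 0.15. The medians of their brightness groups were −0.16 and −0.21. Of the other fucosyltransferases 3 of 4 tested were lower (median −0.03), including Pofut1 (−0.11 ± 0.14), which fucosylates Notch. Fut10, too dim to be tested, was higher on every mutant array than on any control, by 0.12 in the mean, close to the median of 0.09 in its brightness group. The 15.4% given for groups that did not overlap covers tested genes only. The carbohydrate sulfotransferases had only 2 tested genes, 1 in each direction. Chst4 differed by 0.36 ± 0.17, and Chst1, below the cut, was at 4.22, 4.10 and 4.32 in controls and 4.45, 4.85 and 4.60 in mutants. The Chst1 difference was 0.42, in a brightness group with a median of 0.09.

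Proteins other than PSGL-1 can also carry selectin ligands, and 5 of 6 tested carrier genes were lower (median −0.16). All 6 lay in brightness groups 8 to 10, whose medians over all genes were −0.08, −0.16 and −0.21. Glg1, the gene of E-selectin ligand 1, was at 7.56, 7.73 and 7.65 in controls and at 7.54, 6.89 and 7.45 in mutants, with groups that did not overlap although the lowest control and the highest mutant lay side by side (−0.35 ± 0.18, SE). Cd44 was at 7.13 ± 0.11 and 6.87 ± 0.23 (SD, n = 3 each), and Podxl, below the cut, was 0.21 higher in mutants with groups that did not overlap. The median of the Podxl brightness group was 0.10. Of 5 genes of proteins that bind the PSGL-1 tail or signal from it 4 were lower (median −0.13), including the cytoskeletal linker gene Msn (−0.37 ± 0.19) and the kinase gene Syk (−0.44 ± 0.25). Ezr, Msn and Syk lay in brightness group 10 (median −0.21 over all genes) and Rdx and Snx20 in group 9 (−0.16), so the list median was not below these. Syk was at 7.68, 8.41 and 8.14 in controls and at 7.75, 7.99 and 7.18 in mutants, so that both Syk and Msn were lowest on mutant replicate 3, as Selplg was. So were 19.1% of all tested genes. Of the selectins themselves, Selp was below the cut (4.50 ± 0.26 and 4.59 ± 0.04) and Sele, an endothelial gene, was at 4.78 ± 0.36 and 5.09 ± 0.03 (0.31 ± 0.18, SE). The lowest adjusted p among the tested pathway genes was 0.594 in limma.

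**Figure D3:**
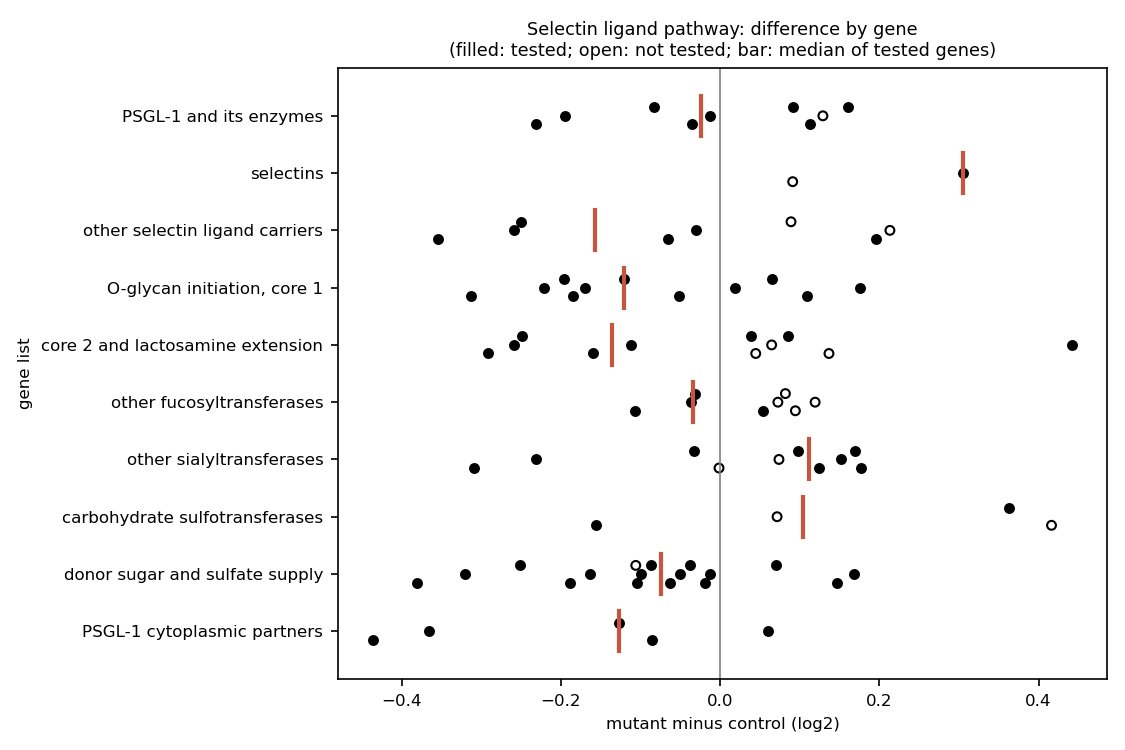
Difference of mutant minus control means (log2, x axis) for each gene of the 10 lists of the selectin ligand pathway (y axis), with filled points for tested genes, open points for genes below the brightness cut and a bar for the median of the tested genes. Medians run from −0.16 in the other carriers to 0.31 in the selectins, where it is the single tested gene Sele, and no gene passed.

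The genes were not equally steady under other settings. B4galt1 and Tpst1 were below 0 and Fut4, Fut7, St3gal4 and Tpst2 above 0 in all 17 alternatives fitted with 1 value per gene, whereas Selplg, Gcnt1 and St3gal6 changed sign in 3, 3 and 6 of these. The 17 overstate the steadiness, since filters, variance models and blocks leave a gene's difference unchanged by construction. So does the mean of all probe sets, except for Selplg. Only array weights, normalizations and leaving out an array could turn a sign in the other genes. Between the arrays with low Eif2s3y alone, however, St3gal4 was at −0.084 and Fut7 at −0.0093, against 0.18 and 0.17 among the other 4 arrays.

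**Figure D4:**
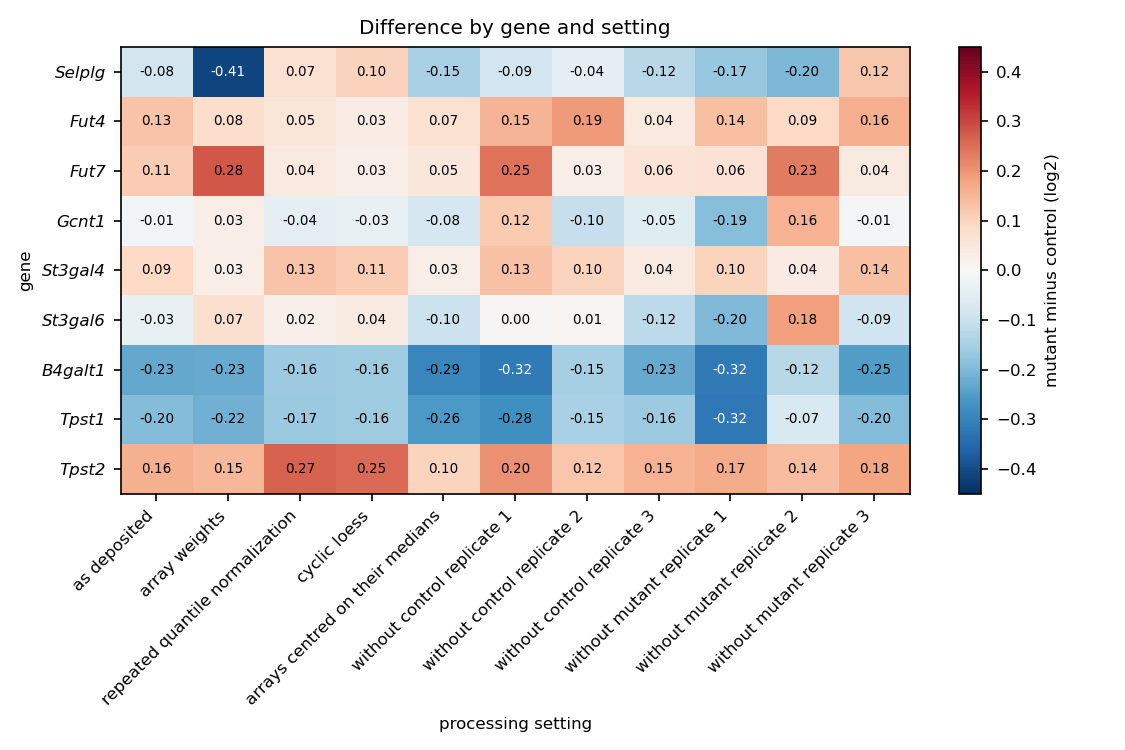
Difference of mutant minus control means (log2, colour and printed value) for each of the 9 genes (rows) as deposited and under 10 other settings (columns), including leaving out each array. B4galt1 and Tpst1 are negative and Tpst2 positive in every column, and Selplg runs from −0.41 with array weights to 0.12 without mutant replicate 3.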

How the data were processed

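The authors deposited log2 intensities per probe set, for which the submitters' processing notes name RMA. RMA corrects background, aligns the arrays' distributions and summarises probes, and leaves no detection call. Neither a version nor a build is given in the sources used here, and coordinates are left out. Samples were grouped by their titles. Of 41345 probe sets, 23521 had 1 gene symbol in the platform annotation, 1814 had several and 16010 had none listed. Each of 22180 genes was represented by its single-symbol probe set with the highest mean, and the lowest 40% of genes (under 4.84) were not tested, which left 13308 and 8 of the 9 genes. All 9 matched a RefSeq gene identifier (GRCm38.p6).

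Groups were compared with limma 3.58.1 (R 4.3.3) by lmFit and eBayes in a 2-sided test with Benjamini-Hochberg adjustment over all tested genes and a threshold of 0.05, a procedure first tested on simulated data. Figures used matplotlib 3.10.9. The genes and lists were chosen with earlier results of these data known. From each pathway list the genes whose groups did not overlap were named, filled to 2 with the lowest unadjusted p. Selp, Sele, Cd44, St6gal1 and the 5 genes most correlated with Selplg were always named. Alternatives were other filters, probe set rules, variance models, array weights, normalizations, blocks for replicate number and Eif2s3y level, and leaving out each array.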

Additional observations from a re-analysis of the deposited data

How the results depend on the processing

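Over 18 alternatives, 0 of the tested genes among the 9 passed in limma, except that Selplg, 1 gene, passed with array weights, where 2960 genes passed in all. Over all tested genes the count of genes past the threshold was 0 to 6 on leaving out 1 array. The median difference over the 9 genes was −0.17 to 0.12 on leaving out 1 array, the ends being without mutant replicate 1 and without control replicate 1. The count of genes above the median of their brightness group was 3 to 7.

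Filters, variance models and blocks could not change the direction of a gene. In all 17 alternatives with 1 value per gene, these included, Fut4, Fut7, St3gal4, B4galt1, Tpst1 and Tpst2 kept their direction. The sign of the others turned. Selplg was at 0.068 with repeated quantile normalization and at 0.10 with cyclic loess, and ran from −0.20 to 0.12 on leaving out 1 array. Gcnt1 was at 0.031 with array weights and ran from −0.19 to 0.16. St3gal6 was at 0.072 with array weights, 0.024 with repeated quantile normalization and 0.039 with cyclic loess, and ran from −0.20 to 0.18. The cause was not tested.

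Deviations of same-numbered control and mutant samples from their group means correlated at 0.13, 0.20 and −0.13 for numbers 1, 2 and 3, so the numbers were not taken as pairs. With the replicate number as a block 0 genes passed, 0 of the 9 among them. Each number occurs once in each group, so this block cannot change a mean difference, and the median of −0.01 is the same by construction. No detection call is given, so the distance of dim genes such as Fut4 and Fut7 from background is unknown, and 3 arrays per group limit what can be resolved.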
